A study of Mus musculus with 4 samples.

Results

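The 36 genes encode molecular chaperones of the cytosol, mitochondria and endoplasmic reticulum, the sensors and factors that adjust them, and further targets of both. They were chosen by name and found by summing the RefSeq rows of each mouse symbol. All 36 were present among the 24148 genes of the count table. Primary microglia of the mouse, which are macrophages that reside in the brain, were treated with lipopolysaccharide (LPS), a component of the Gram-negative outer membrane, at 10 ng/ml for 4 h, against untreated control cells, with 2 libraries in each group. The cells of both groups came from mixed glial cultures by shaking and were replated, with no sort described, and no genotype, strain or age is given. No label ties a replicate to a culture or animal of its own, so a p-value here reflects the spread of these libraries alone, and that spread may be technical.

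Most heat shock proteins are chaperones that bind unfolded protein. The Hsp70, Hsp90 and Hsp60 classes use ATP to bind and release it in cycles, while small heat shock proteins hold it without ATP. In the cytosol the factor Hsf1 drives their genes through heat shock elements. In the endoplasmic reticulum the sensors Ire1 (Ern1), Perk (Eif2ak3) and Atf6 respond to unfolded protein. They act through the factors Xbp1 and Atf4 and through Atf6 itself on genes for chaperones, for degradation and for amino acid supply. Macrophages make much secreted protein after LPS, which is a setting in which these pathways have been studied.

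The tables held 5095630 and 4592474 counts in LPS replicates 1 and 2, and 3617176 and 4080568 counts in control replicates 1 and 2. Rows without a matched symbol held 20.1% and 24.6% of these counts in LPS, and 24.9% and 23.8% in control. Nearly all of that share lay in 1 non-coding row, with 20.0% and 24.4% in LPS and 24.8% and 23.7% in control. All 6 genes of an LPS response list (Il6, Il1b, Cxcl10, Rsad2, Nos2 and Tnf) rose in edgeR's quasi-likelihood test. The 11 microglia markers summed to 2415 and 2193 CPM in LPS and to 3625 and 3056 CPM in control, and 0 were called in either direction. The marker Itgam, which has 2 RefSeq rows, was listed at 0 in every library. Some transcript levels differed between replicates of the same group. The astrocyte list (9 genes) summed to 137 and 453 CPM in LPS replicates 1 and 2, and to 121 and 323 CPM in control replicates 1 and 2. The oligodendrocyte list (9 genes) summed to 417 and 60.9 CPM in LPS replicates 1 and 2, and to 407 and 69.0 CPM in control replicates 1 and 2. CPM are counts scaled to a common library size with TMM factors. Neuronal markers summed to 49.8 and 66.2 CPM in LPS and 51.4 and 62.4 CPM in control, those of fibroblasts and pericytes to 39.2 and 64.8 CPM in LPS and 25.95 and 41.7 CPM in control, and those of endothelium to 11.55 and 14.98 CPM in LPS and 6.09 and 15.3 CPM in control. Of these lists Pdgfrb (pericytes), Pecam1 and Tek (endothelium) were listed at 0.

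Of the 36 genes, 30 had a single RefSeq row, and all 30 passed the minimum mean count of 10 over the 4 libraries. The other 6 had several rows, and all 6 fell below it. Hspa5 (BiP, the Hsp70 of the endoplasmic reticulum), Atf4 and Xbp1 have 2 rows each and Canx (calnexin, a lectin chaperone) has 3. These 4 genes were listed at 0 in all 4 libraries. Ddit3 (Chop, a factor of late stress) has 2 rows, with 3 and 3 counts in LPS and 5 and 7 in control. Dnaja1 (an Hsp40 co-chaperone) has 3 rows, with 0 and 2 counts in LPS and 0 and 0 in control. BiP and calnexin are used by every cell that secretes protein, so an entry at 0 says only how the table lists the gene. Across the table, 30.2% of 4801 genes with several rows had no count in any library, against 6.95% of 19347 genes with a single row. The minimum was reached by 11.7% of genes with several rows and by 46.5% of genes with a single row. The counting mode is not given in the sources used here, and its part in these entries was not tested. The response of Hspa5, Canx, Atf4, Xbp1, Ddit3 and Dnaja1 to LPS was therefore not measured here.

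**Figure D1:**
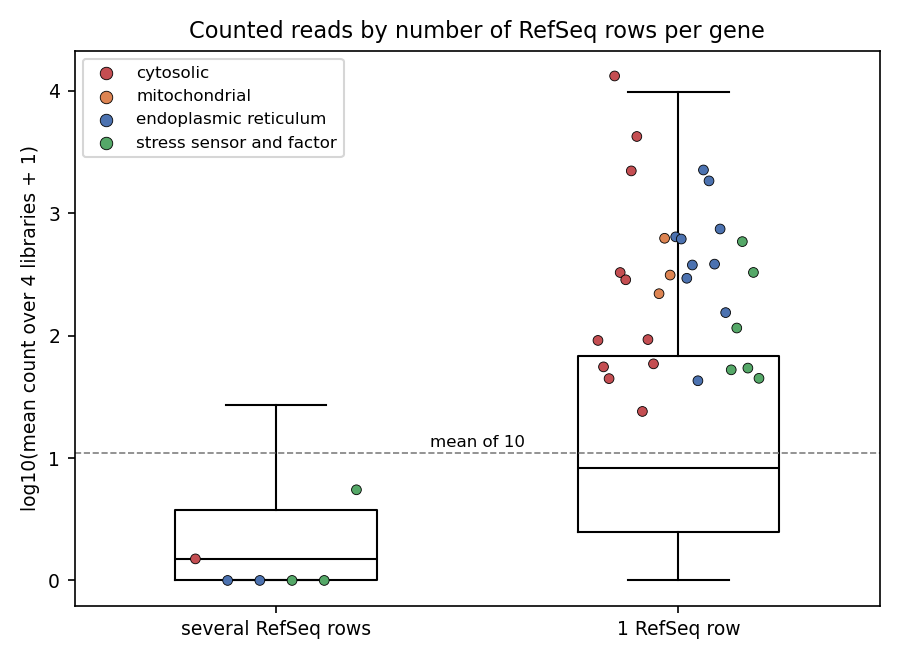
Mean count over the 4 libraries, as log10(mean + 1), for genes with several RefSeq rows and genes with 1 row. Boxes give the quartiles and median of all genes, whiskers reach the last gene within 1.5 box lengths, points are the 36 genes coloured by set, and the dashed line is a mean of 10. All 6 points with several rows lie below the line and all 30 with 1 row lie above it.

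None of the 30 tested genes passed the main test, which used TMM scaling and the minimum mean count of 10, in either direction. edgeR's quasi-likelihood test with Benjamini-Hochberg adjustment over 9548 genes called 0 of 30 higher and 0 of 30 lower, beside 6.55% of all genes tested called higher and 1.79% called lower (8.34% in either direction). DESeq2 also called 0 of 30 in each direction, beside 7.77% of all genes higher and 2.33% lower, as did limma-trend, beside 6.74% higher and 1.91% lower. Other settings called members lower, 2 with total-count scaling (Eif2ak3 and Trib3), 1 after quantile normalization (Pdia3) and 1 with the minimum mean count set to 50 (Trib3). A block on the replicate number called members in both directions, and these calls are given below with the dependence on processing. At an unadjusted p under 0.05 edgeR gave 0 higher and 3 lower, beside 12.8% and 8.51% of all genes. The 3 were Trib3, Eif2ak3 and Dnajb9. Both LPS libraries lay above both control libraries for 2 of the 30 (24.7% of all genes) and below them for 7 (25.8%). The median log2 fold change of LPS over control was 0.13 for 11 cytosolic genes, -0.16 for 3 mitochondrial genes, -0.17 for 10 endoplasmic reticulum genes and -0.37 for 6 sensors, factors and targets, beside -0.05 for all genes tested. The cytosolic median was -0.31 with total-count scaling, which moved the median of all genes by -0.44, and -0.14 after quantile normalization. In bulk RNA, fewer cells of a type and less RNA per cell cannot be told apart.

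**Figure D2:**
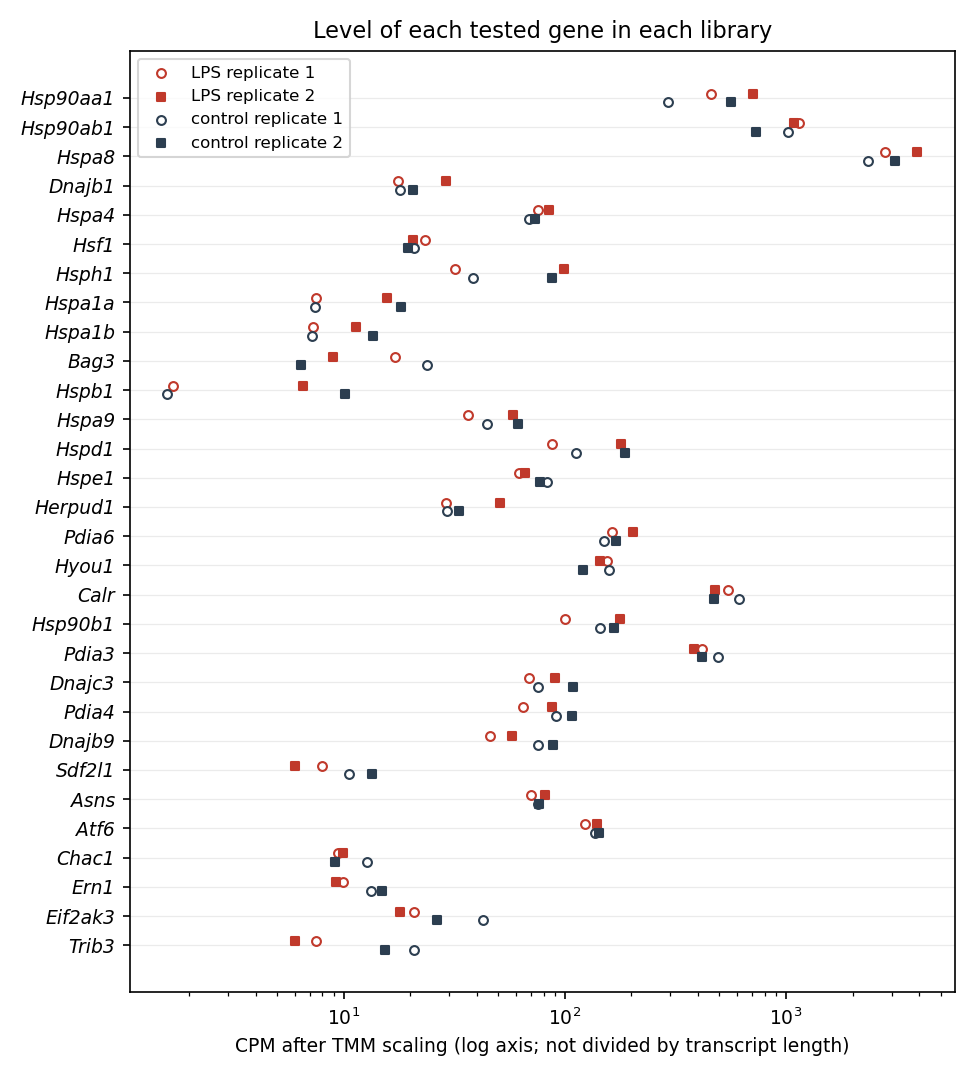
Level of each of the 30 tested genes in each library, in CPM after TMM scaling on a log axis, with LPS libraries in red above control libraries in dark blue, open circles for replicate 1 and filled squares for replicate 2. For Hspb1, Hspa1a and Hsph1 the symbols separate by replicate, while for Trib3 and Dnajb9 both LPS libraries lie below both control libraries.

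**Figure D3:**
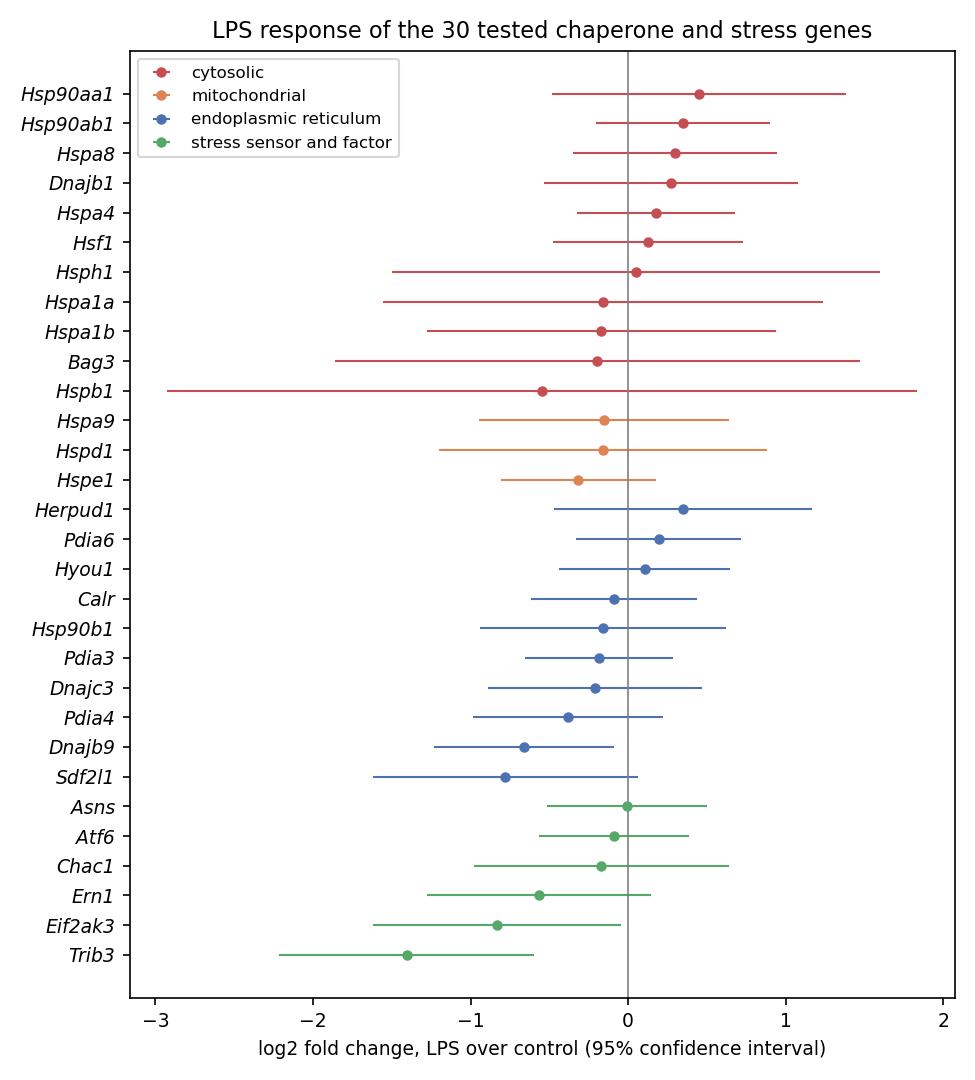
Log2 fold change of LPS over control for the 30 tested genes, grouped by set, with 95% confidence intervals from edgeR that are not adjusted for the number of genes. The intervals of Trib3, Eif2ak3 and Dnajb9 lie below 0 and the other 27 include 0.

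Among cytosolic genes, the most abundant per length was Hspa8 (Hsc70, the constitutive Hsp70), at 1402 ± 334 CPM per kb of transcript in LPS and 1140 ± 230.3 CPM per kb in control (SD, n = 2 each). Next came Hsp90ab1, the constitutive Hsp90, at 443 ± 15.5 in LPS and 348 ± 79.6 CPM per kb in control. Hsp90aa1, the inducible Hsp90, followed at 178 ± 53.7 in LPS and 130 ± 57.5 CPM per kb in control. In control, the spreads of Hsp90ab1 and Hsp90aa1 did not overlap, nor did those of Hspa8 and Hsp90ab1. The levels of the other tested cytosolic genes ranged from 3.31 to 17.4 CPM per kb in LPS.

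Hsp90ab1 (chromosome 17, 45567778 to 45573261, GRCm38.p6) had 1144 and 1089 CPM in LPS and 1019 and 735 CPM in control. Both LPS libraries lay above both controls, by a margin smaller than the gap between the controls. Its log2 fold change was 0.35 ± 0.22 (SE; 95% interval -0.21 to 0.90; edgeR adjusted p = 0.46). Hsp90aa1 had 459 and 709 CPM in LPS and 294 and 561 CPM in control. Its groups overlapped, and its log2 fold change was 0.45 (interval -0.48 to 1.38; adjusted p = 0.59). Hspa8 had 2789.5 and 3922 CPM in LPS and 2339 and 3118 CPM in control, which also overlap (0.30, interval -0.35 to 0.95). For these 3 genes the sign turned with total-count scaling and with quantile normalization. Hspa4, an exchange factor of the Hsp110 class, had 75.8 and 85.1 CPM in LPS and 68.6 and 73.4 CPM in control (0.18, interval -0.32 to 0.68). Hsf1, the heat shock factor itself, had 23.3 and 20.5 CPM in LPS and 20.7 and 19.6 CPM in control (0.13, interval -0.48 to 0.73). Its interval leaves out a 2-fold change in either direction, as do those of Hspa4, Hspa8 and Hsp90ab1. Dnajb1, an Hsp40 that activates Hsp70, had 17.6 and 29.0 CPM in LPS and 18.01 and 20.5 CPM in control (0.27, interval -0.54 to 1.08).

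Several inducible heat shock genes differed more between replicates than between groups. Hspb1 (Hsp27, a small heat shock protein that holds unfolded protein; chromosome 5, 135887919 to 135889563) had 1.68 and 6.52 CPM in LPS replicates 1 and 2, and 1.59 and 10.1 CPM in control replicates 1 and 2. Replicate 2 was 3.88-fold higher than replicate 1 in LPS and 6.34-fold higher in control. These levels rest on 7 and 27 counts in LPS and 6 and 52 in control. Hsph1 (Hsp105, an Hsp110 exchange factor) had 31.8 and 99.1 CPM in LPS and 38.4 and 87.4 CPM in control, 3.12-fold and 2.28-fold higher in replicate 2. Hspa1a, an inducible Hsp70, had 7.46 and 15.7 CPM in LPS and 7.42 and 18.2 CPM in control. Its neighbour and near copy Hspa1b had 7.22 and 11.4 CPM in LPS and 7.15 and 13.6 CPM in control. In each of these 4 genes the 2 libraries numbered 2 were the high ones and the groups overlapped.

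Bag3, a co-chaperone that links Hsp70 to autophagy, ran the other way, with 17.1 and 8.94 CPM in LPS replicates 1 and 2 and 23.8 and 6.39 CPM in control replicates 1 and 2. Both libraries numbered 1 were high. The log2 fold changes of LPS over control were -0.55 for Hspb1 (interval -2.93 to 1.84), 0.05 for Hsph1 (-1.50 to 1.60), -0.16 for Hspa1a (-1.56 to 1.24), -0.17 for Hspa1b (-1.28 to 0.94) and -0.20 for Bag3 (-1.86 to 1.47). The 5 intervals include a 2-fold decrease, so a decrease of that size cannot be left out here. Except for that of Hspa1b, they also include a 2-fold increase. Without control replicate 2 the value of Hspb1 was 1.33, and without LPS replicate 2 it was -1.81. Without control replicate 1 the value of Bag3 was 1.01 and without control replicate 2 it was -0.91. The labels do not say what the replicate number stands for.

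Over 1.5-fold higher levels in replicate 2 than in replicate 1, in both groups, were found for 6 of the 30 genes, 5 of them cytosolic and 1 mitochondrial, beside 7.69% of all genes tested. The 6 were Hspa1a, Hspa1b, Hsph1, Hsp90aa1, Hspb1 and Hspd1. The opposite was found for 1 gene, Bag3, beside 8.63% of all genes. None of the 16 tested endoplasmic reticulum genes, sensors, factors and targets did so in either direction. These are descriptions without a test. Most of the astrocyte list moved the same way, with 6 of its 8 tested genes over 1.5-fold higher in replicate 2 in both groups, except that S100b was over 1.5-fold lower. S100b had 39.4 and 2.66 CPM in LPS replicates 1 and 2, and 37.3 and 2.71 CPM in control replicates 1 and 2. The oligodendrocyte list moved the opposite way, with 6 of its 7 tested genes over 1.5-fold lower. Of the 9 tested genes of the microglia list, 2 were over 1.5-fold lower in replicate 2 in both groups, and 0 were higher. Cx3cr1 had 140 and 51.0 CPM in LPS replicates 1 and 2, and 330 and 54.4 CPM in control replicates 1 and 2. Csf1r had 411 and 254 CPM in LPS replicates 1 and 2, and 680 and 319 CPM in control replicates 1 and 2. No gene of the astrocyte list was listed at 0 in all libraries. The share of counts held by Lars2 was 10.5% and 6.07% in LPS replicates 1 and 2, and 13.0% and 5.02% in control replicates 1 and 2. The part of these differences in the heat shock values was not tested.

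**Figure D4:**
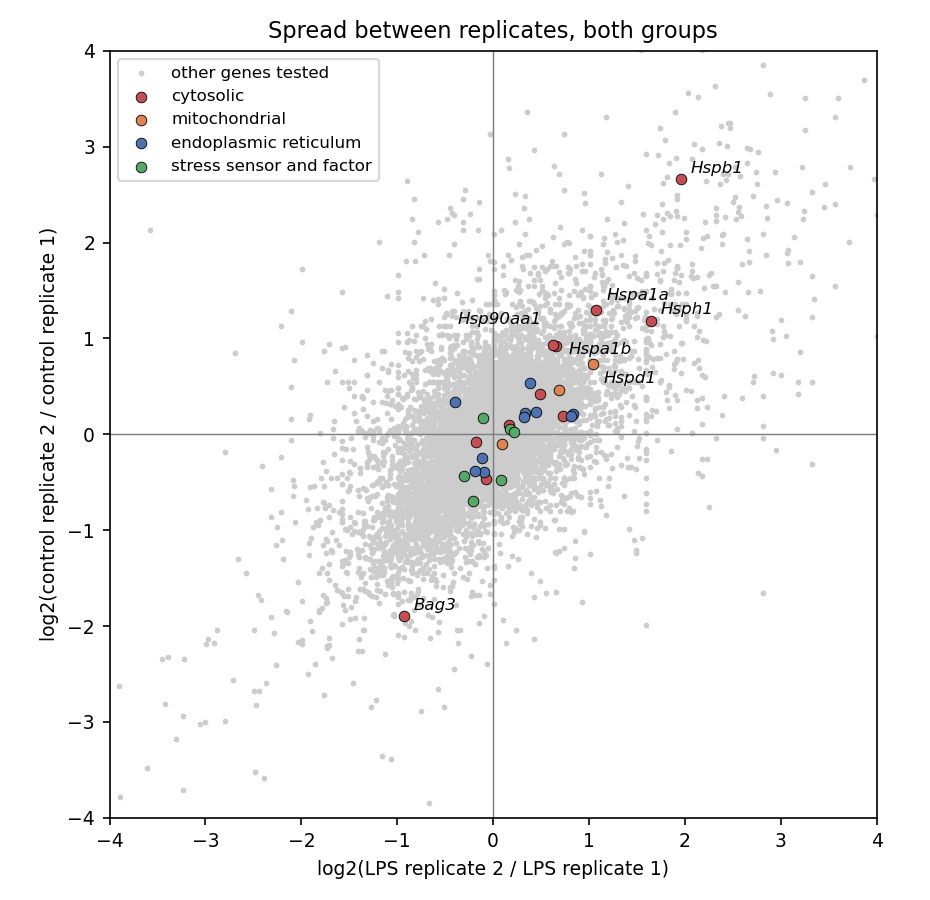
Log2 ratio of replicate 2 to replicate 1 in LPS (x axis) and in control (y axis), from CPM. Grey points are all genes tested that had counts in every library, of which 23 lie outside the axes, and coloured points are the 30 genes by set. Hspb1, Hsph1, Hspa1a, Hspa1b, Hsp90aa1 and Hspd1 lie at the upper right and Bag3 at the lower left.

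Promoters of genes that were high in both libraries numbered 2, and of Hspe1 beside Hspd1, are shown because they carry the letters of a heat shock element. RefSeq promoter windows (GRCm38.p6) were matched for 29 of the 36 genes. Hsf1, Hspa9, Hsp90aa1, Hspa8, Hyou1, Hsp90ab1 and Atf6 were not matched. A heat shock element was searched as GAANNTTC or TTCNNGAA, each of which reads the same on both strands, in the 250 bases before a start. It was found, in any of a gene's windows, for 9 of the 29 genes. Some genes have several windows, and the share counted per window was 12.8% of 32851 windows. The 9 were Hspa1a, Hspa1b, Hsph1, Hspb1, Dnaja1, Hspd1, Hspe1, Eif2ak3 and Asns. Capitals mark the matches in these stretches, written 5′ to 3′ on the gene's strand.
Hspa1a: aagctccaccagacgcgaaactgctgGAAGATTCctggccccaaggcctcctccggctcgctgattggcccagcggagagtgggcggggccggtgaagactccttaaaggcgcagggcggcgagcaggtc
Hspa1b: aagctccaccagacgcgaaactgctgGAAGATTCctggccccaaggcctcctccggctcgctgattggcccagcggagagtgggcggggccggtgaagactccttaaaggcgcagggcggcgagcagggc
Hspb1: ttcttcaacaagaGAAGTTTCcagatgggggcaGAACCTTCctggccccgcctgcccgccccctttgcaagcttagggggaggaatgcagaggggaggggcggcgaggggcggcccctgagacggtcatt
Hsph1: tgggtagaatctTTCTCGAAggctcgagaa
Hspe1: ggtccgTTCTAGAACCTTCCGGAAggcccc
They lie at chr17:34972157-34972286 (minus strand), chr17:34959239-34959368 (minus), chr5:135887789-135887918 (plus), chr5:149636352-149636381 (minus) and chr1:55088053-55088082 (plus). Hspb1 has 2 matches. The Hspe1 stretch, which lies before the start of Hspe1 and inside the annotated span of its neighbour Hspd1, has 3 that overlap. The 3 matches of Hspd1 are these same bases, so 1 stretch counts for both genes. These matches fall in window 2 of Hspd1, and its window 1 had 0. No match was found in the window of Bag3. The windows of Hspa1a and Hspa1b differ at 3 of 250 bases. Of the stretches of 101 bases, the read length, in the transcript of Hspa1a, 46.9% also occur in that of Hspa1b. Reads from these 2 genes may be split or lost between them, and their separate levels are uncertain. A match is a description of letters, not evidence of binding.

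Mitochondrial chaperones gave no call. Hspd1 (Hsp60) and Hspe1 (Hsp10) form the folding chamber of the matrix and are transcribed in opposite directions from neighbouring starts on chromosome 1 (Hspd1 at 55077833 to 55088243, Hspe1 at 55088148 to 55091317). Hspe1 had 62.3 and 66.2 CPM in LPS and 82.9 and 77.1 CPM in control. Its replicates lay close together, and both LPS libraries were below both controls. Its log2 fold change was -0.32 ± 0.20 (interval -0.81 to 0.18; edgeR adjusted p = 0.45). Hspd1 had 87.3 and 180 CPM in LPS and 112 and 186 CPM in control. Unlike Hspe1, it was high in both libraries numbered 2, and its groups overlapped (-0.16, interval -1.20 to 0.88). The annotated ends of these 2 genes overlap, and reads there may be counted for either. Hspa9 (mortalin, the Hsp70 of the matrix) had 36.3 and 58.5 CPM in LPS and 44.2 and 61.0 CPM in control (-0.15, interval -0.95 to 0.64). Its sign turned when control replicate 2 or LPS replicate 1 was left out (0.074 and 0.16), as did that of Hspd1 (0.23 and 0.28), and the median of the 3 genes turned to 0.16 without LPS replicate 1.

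No endoplasmic reticulum gene passed the test. Both LPS libraries lay below both controls for 3 of the 10 tested, a share near the 25.8% of all genes, and these were Dnajb9, Sdf2l1 and Pdia4. Dnajb9 (ERdj4, a co-chaperone of BiP that also restrains Ire1; chromosome 12, 44205897 to 44210068) had 45.9 and 57.8 CPM in LPS and 75.7 and 88.2 CPM in control. Its log2 fold change was -0.66 ± 0.23 (interval -1.23 to -0.09; edgeR adjusted p = 0.17). Sdf2l1, a partner of BiP and its co-chaperones, had 7.94 and 6.04 CPM in LPS and 10.6 and 13.4 CPM in control (-0.78 ± 0.34, interval -1.62 to 0.06, edgeR adjusted p = 0.27). Pdia4, a disulfide isomerase, had 64.5 and 87.7 CPM in LPS and 91.4 and 107 CPM in control, where the higher LPS library came near the lower control (-0.38, interval -0.99 to 0.22). Dnajb9 kept this sign in 13 of 13 other settings, but in the 12 of them without a block on the replicate number its adjusted p was 0.069 to 0.63.

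The other endoplasmic reticulum genes overlapped between groups. Calr (calreticulin, a lectin chaperone) had the highest level per length of the 10 tested genes of this set, 234 ± 21.2 CPM per kb in LPS and 249 ± 46.1 CPM per kb in control. Pdia3, the isomerase that works with it, followed at 145 ± 8.57 in LPS and 164 ± 19.5 CPM per kb in control. The log2 fold changes were -0.09 for Calr (interval -0.62 to 0.44) and -0.18 for Pdia3 (-0.65 to 0.29), and quantile normalization alone of the 13 settings called Pdia3 (-0.82, limma-trend adjusted p = 0.031). Hsp90b1 (Grp94, the Hsp90 of this compartment) had 99.8 and 178 CPM in LPS and 144 and 166 CPM in control (-0.16, interval -0.94 to 0.62). Hyou1 (Grp170, an exchange factor of BiP) had 154 and 145 CPM in LPS and 158 and 120.1 CPM in control (0.11, interval -0.44 to 0.65). Pdia6, an isomerase, had 163 and 203 CPM in LPS and 150.2 and 170.1 CPM in control (0.19, interval -0.33 to 0.72). Dnajc3 (p58IPK, a co-chaperone of BiP) had a log2 fold change of -0.21 (-0.89 to 0.47). Herpud1, which takes part in degradation of misfolded protein, had 28.9 and 50.7 CPM in LPS and 29.1 and 33.3 CPM in control, so its value of 0.35 (-0.47 to 1.16) rests on LPS replicate 2 and was -0.11 without it.

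Promoters with an endoplasmic reticulum stress element, through which Atf6 acts together with the factor NF-Y, are shown because the members that carry it include 2 without usable counts. The element was searched as CCAAT and CCACG with 9 bases of any kind between them, on both strands. Counted per gene it was found in 6 of 29, and counted per window in 0.113% of all windows. Capitals mark the matches.
Hspa5: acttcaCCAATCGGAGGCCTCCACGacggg
Hsp90b1: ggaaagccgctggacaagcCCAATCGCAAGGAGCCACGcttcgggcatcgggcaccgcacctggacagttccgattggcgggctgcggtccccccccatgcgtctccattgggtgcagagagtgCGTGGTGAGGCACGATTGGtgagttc
Dnajc3: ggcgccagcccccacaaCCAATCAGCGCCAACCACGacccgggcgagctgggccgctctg
Pdia6: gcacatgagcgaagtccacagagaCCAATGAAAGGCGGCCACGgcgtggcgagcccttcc
Calr: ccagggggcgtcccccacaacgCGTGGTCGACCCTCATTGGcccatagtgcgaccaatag
Canx: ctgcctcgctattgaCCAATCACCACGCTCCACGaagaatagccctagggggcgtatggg
They lie at chr2:34772019-34772048 (plus strand), chr10:86705526-86705675 (minus), chr14:118937810-118937869 (plus), chr12:17266467-17266526 (plus), chr8:84847056-84847115 (minus) and chr11:50325774-50325833 (minus). Hsp90b1 has 2 matches, 1 on each strand, and the match of Calr is on the opposite strand. The 4 of these genes that were tested, Hsp90b1, Dnajc3, Pdia6 and Calr, had the log2 fold changes of -0.16, -0.21, 0.19 and -0.09 given above, with intervals that include 0 and leave out a 2-fold change in either direction. Dnajb9, Sdf2l1 and Pdia4 had no match in their windows.

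Among the sensors, Eif2ak3 (Perk, the kinase that slows translation; chromosome 6, 70844484 to 70905241) had 20.7 and 17.9 CPM in LPS and 42.6 and 26.4 CPM in control. Both LPS libraries lay below both controls, and the controls differed 1.62-fold. Its log2 fold change was -0.83 ± 0.32 (interval -1.62 to -0.05; edgeR adjusted p = 0.21). It was -1.18 without control replicate 2 and -0.46 without control replicate 1. Total-count scaling called it (-1.24, adjusted p = 0.046). Ern1 (Ire1, the nuclease that splices Xbp1 mRNA) had 9.86 and 9.18 CPM in LPS and 13.2 and 14.9 CPM in control, also without overlap (-0.56, interval -1.27 to 0.14, edgeR adjusted p = 0.35). Atf6, the membrane-bound factor, had 123 and 139 CPM in LPS and 137 and 142 CPM in control, and its value of -0.09 has an interval (-0.57 to 0.39) that leaves out a 2-fold change. Counts per gene do not show whether Xbp1 was spliced or whether a sensor was active.

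Trib3, a pseudokinase induced by Atf4 and Chop that feeds back on Akt and Atf4, had the lowest fold change of the 30 genes. It had 7.46 and 6.04 CPM in LPS and 20.7 and 15.3 CPM in control, from 31 and 25 counts in LPS and 78 and 79 in control. Both LPS libraries were well below both controls. It was 2.65-fold lower in LPS (log2 -1.41 ± 0.32, interval -2.21 to -0.60), and 2.85% of all genes tested had a lower log2 fold change. The edgeR adjusted p was 0.063, so it did not pass. With the minimum mean count set to 50 it was called (-1.50, adjusted p = 0.034), as with total-count scaling (-1.83, 0.020). Over the 12 settings without a block its adjusted p ranged from 0.020 to 0.30. The promoter of Trib3 is shown because this gene lay furthest from 0.
Trib3: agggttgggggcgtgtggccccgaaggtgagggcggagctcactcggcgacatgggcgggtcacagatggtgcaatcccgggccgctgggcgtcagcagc
It lies at chr2:152344061-152344160 (minus strand) and has no capitals, since neither of the elements above, nor TGATGNAA (an amino acid response element, found in 3.45% of windows on either strand), was matched there. The last was matched in Herpud1, Asns and Chac1.

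Asns (asparagine synthetase) and Chac1 (a glutathione-degrading enzyme), both also induced through Atf4, had fold changes nearer 0 than Trib3. Asns had 70.0 and 81.2 CPM in LPS and 75.2 and 76.7 CPM in control, with a log2 fold change of -0.01 and an interval of -0.51 to 0.50. Chac1 had 9.38 and 9.91 CPM in LPS and 12.7 and 9.11 CPM in control (-0.17, interval -0.98 to 0.64). The difference between Trib3 and these genes was not tested.

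Further genes of these pathways were taken from 4 lists. Of 36 cytosolic co-chaperones and chaperonin subunits 29 were tested, of which 1 was higher and 0 were lower, beside 6.55% and 1.79% of all genes tested, with a median log2 fold change of 0.30. The gene was Dnaja2, an Hsp40, with 413 and 299 CPM in LPS and 145 and 114 CPM in control (1.46 ± 0.25, edgeR adjusted p = 0.024). Without LPS replicate 1 the call of Dnaja2 was lost (1.22, 0.13). Both LPS libraries lay above both controls for 16 of the 29, beside 24.7% of all genes, and below them for 0, beside 25.8%. These positions and the medians of the 4 lists rest on TMM scaling. Total-count scaling moved the median of all genes by -0.44, and the positions and medians of the lists were not recomputed with it. Of 15 mitochondrial folding and protease genes 12 were tested, of which 0 were higher and 1 lower (median 0.15), beside the same 6.55% and 1.79%. For 4 of the 12 both LPS libraries lay above both controls, and for 1 below them, beside the same 24.7% and 25.8% of all genes. The gene called lower was Hscb, a co-chaperone of iron-sulfur cluster assembly, with 12 and 7 counts in LPS and 48 and 54 in control (-2.32 ± 0.42, adjusted p = 0.030), a call lost without LPS replicate 1 (-2.74, 0.091) or LPS replicate 2 (-1.99, 0.15).

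Of 38 genes of folding, degradation and transport in the endoplasmic reticulum 31 were tested, of which 0 were higher and 1 lower (median -0.01), beside 6.55% and 1.79% of all genes. For 4 of the 31 both LPS libraries lay above both controls, beside 24.7% of all genes, and for 6 below them, beside 25.8%. Erp29, a chaperone of secreted proteins, had 71.9 and 72.01 CPM in LPS and 207 and 160.2 CPM in control (-1.35 ± 0.22, edgeR adjusted p = 0.020). Its call was lost without LPS replicate 1 (-1.34, 0.14) or LPS replicate 2 (-1.35, 0.14). Of 25 targets and kinases of the integrated stress response 16 were tested, of which 4 were higher and 1 lower (median 0.22), beside 6.55% and 1.79% of all genes. For 6 of the 16 both LPS libraries lay above both controls, and for 2 below them, beside the same 24.7% and 25.8% of all genes. Slc7a11, the cystine importer and also an Nrf2 target, had 3352 and 4232 CPM in LPS and 371 and 479 CPM in control, 8.93-fold higher (adjusted p = 0.0020). Eif2ak2 (Pkr, a kinase that senses double-stranded RNA and is induced by interferon) rose by 2.99 ± 0.25 on the log2 scale (0.0024). Nupr1, a small stress-induced nuclear protein, was higher by 2.58 ± 0.42 (0.020), but it did not pass when LPS replicate 1 (2.56, 0.072) or LPS replicate 2 (2.61, 0.067) was left out. Nupr1 had 16 and 51 counts in control, and its value was 3.30 without control replicate 2 and 2.11 without control replicate 1. Atf3, a stress-induced factor of the same list that is named here after its values were seen, rose by 1.86 ± 0.22 (0.0071). Cebpg, a partner of Atf4, had a log2 fold change of -1.10 ± 0.22 (0.041). It did not pass when any of control replicate 2 (-1.03, 0.10), LPS replicate 1 (-0.99, 0.32) and LPS replicate 2 (-1.21, 0.18) was left out, nor with no filter on low counts (-0.995, 0.060).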

How the data were processed

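Gene expression was measured in 2 LPS and 2 control libraries of primary mouse microglia. Per the labels' protocols, libraries were directional, made after removal of ribosomal RNA, and read from both ends. The submitters' processing notes list HTSeq 0.6.1, TopHat2 2.0.10, Cufflinks 2.2.1, Trimmomatic 0.33, CASAVA 1.8.2 and build mm10. How reads were counted, with which annotation and whether by strand, is not given in the sources used here. The authors deposited counts as whole numbers, in 1 table of 32915 RefSeq accessions that its name calls normalized. Its column totals differ and small values fall off smoothly, so it was treated as counts.

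Accessions were matched to symbols through RefSeq (GRCm38.p6, 32487) and GENCODE (187), 241 kept their own identifier, and rows were summed per symbol. The 9548 genes that averaged 10 or more counts were tested with edgeR 4.0.16 (R 4.3.3), TMM scaling, all 4 libraries and no covariate, two-sided, at an adjusted p under 0.05. The standard error is the log2 fold change over the square root of F, and intervals use edgeR's total degrees of freedom. Alternatives used DESeq2 1.42.0, limma 3.58.1, other scalings and filters, the highest RefSeq row per symbol, a replicate block, and each library left out. Levels per length use the longest GENCODE M21 transcript matched to the accession. The script was tested on simulated data. The 2 replicates of a group were not copies of each other (chi-square 25.4 per degree of freedom in LPS and 34.3 in control). Members and lists were chosen with earlier results of these data known. Every member is accounted for, and of the further pathway genes the 3 largest called increases and decreases per list are named.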

Additional observations from a re-analysis of the deposited data

How the results depend on the processing

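Of the values above, the log2 fold changes of the 30 tested genes kept their sign and their side of the threshold in 325 recomputations, were past it in 11 and turned sign in 50, none of which was past it. With 2 libraries a group the number of replicates limits the precision. Leaving out 1 library gave 339 to 660 genes higher and 33 to 237 lower, and 0 members called either way. Total-count scaling called 489 genes lower and quantile normalization 322. Members called lower numbered 2 with total-count scaling, the sensor Eif2ak3 (-1.24, edgeR adjusted p = 0.046) and the target Trib3 (-1.83, 0.020). They numbered 1 with quantile normalization (Pdia3, of the endoplasmic reticulum) and 1 with a minimum mean count of 50 (Trib3). The share of higher genes among all calls was 78.5% with TMM, 49.0% with total-count scaling and 61.9% after quantile normalization. The cause of these differences was not tested.

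Same-numbered replicates deviated together (correlation 0.673 over all genes and 0.863 over members), but the labels do not say what the number marks and there are only 2 pairs. With a replicate block, 1676 genes were higher and 1258 lower (57.1% higher), with 2 members higher, both cytosolic (Hsp90aa1 0.49, edgeR adjusted p = 0.0044, and Hsp90ab1 0.37, 0.037). The block called 5 members lower, 3 of the endoplasmic reticulum (Dnajb9 -0.66, Sdf2l1 -0.79 and Pdia4 -0.39) and 2 of the sensors, factors and targets (Eif2ak3 -0.81 and Trib3 -1.41).

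Medians with total-count scaling were -0.31 (cytosolic), -0.61 (mitochondrial), -0.60 (endoplasmic reticulum) and -0.80 (sensors, factors and targets). After quantile normalization they were -0.14 (cytosolic), -0.63 (mitochondrial) and -0.70 (endoplasmic reticulum). The mitochondrial median was -0.050 with no filter and -0.26 with a minimum mean count of 50. With that minimum the median of sensors, factors and targets was -0.67. With 1 library left out the medians ranged from 0.037 to 0.35 (cytosolic), -0.53 to 0.16 (mitochondrial), -0.26 to -0.098 (endoplasmic reticulum) and -0.47 to -0.29 (sensors, factors and targets).

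Signs of uncalled genes turned with total-count scaling in Hsf1 (-0.31), Hspa8 (-0.14), Hspa4 (-0.26), Hsph1 (-0.40), Hsp90aa1 (-0.013), Hsp90ab1 (-0.065), Dnajb1 (-0.16), Hyou1 (-0.31), Pdia6 (-0.24) and Herpud1 (-0.077). After quantile normalization they turned in Hspa8 (-0.73), Hspa4 (-0.14), Hsph1 (-0.30), Hsp90aa1 (-0.22), Hsp90ab1 (-0.63), Bag3 (0.027), Hyou1 (-0.33) and Pdia6 (-0.32). That of Hsph1 also turned with limma-trend (-0.046), with the minimum of 50 (-0.051) and with the block (-0.0053). With no filter Calr (0.015), Atf6 (0.018) and Asns (0.10) turned, and Asns was 0.0080 with median-ratio factors and in DESeq2. Leaving out 1 library turned the sign of 16 genes, whose ranges were Hspa1a (-0.79 to 0.62), Hspa1b (-0.55 to 0.35), Hsph1 (-0.98 to 0.75), Hspb1 (-1.81 to 1.33), Dnajb1 (-0.13 to 0.60), Bag3 (-0.91 to 1.01), Hspa9 (-0.53 to 0.16), Hspd1 (-0.77 to 0.28), Hsp90b1 (-0.63 to 0.21), Hyou1 (-0.11 to 0.31), Dnajc3 (-0.46 to 0.051), Calr (-0.30 to 0.10), Herpud1 (-0.11 to 0.71), Atf6 (-0.18 to 0.0056), Asns (-0.11 to 0.10) and Chac1 (-0.43 to 0.076).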
